A study of Macaca mulatta with 80 samples.

Results

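Gene expression in the entorhinal cortex (EC) of rhesus monkeys was compared between newborns and infants of 6 months. The comparison used the 8 of 80 arrays that were labelled EC and either newborn (4 arrays, animals 13 to 16) or 6 months (4 arrays, animals 9 to 12). No measured value entered this choice. The study read 5 parts of the hippocampal formation in 16 male rhesus monkeys, 4 at each of 4 ages: 1 day, 6 months, 1 year and 6 to 12 years. Each region of each animal had an array of its own. All were killed with an overdose of pentobarbital, and the labels give no treatment that differs between groups. For the EC, all cell layers of the intermediate division were microdissected at the middle of its length, from slices kept in RNAlater and frozen. Total RNA was labelled with biotin in 2 amplification cycles and hybridised to an array built for human transcripts. Each group held 4 animals, and p-values measure the spread between animals of 1 sex, for the EC age change pooled over all 4 ages. Samples were pieces of tissue, so fewer cells of a type and less RNA per cell cannot be told apart in any result below.

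The entorhinal cortex is the gateway between the neocortex and the hippocampus. Neurons of its superficial layers send the perforant path to the dentate gyrus, CA3, CA1 and the subiculum, and its deep layers receive the output of the subiculum and CA1. In the months after birth, cortical neurons extend dendrites, form and prune synapses, and replace immature channel and receptor subunits with mature ones, while glia divide and mature.

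Values are log2 signals after quantile normalization of all 80 arrays, with 1 probe set for each of 19775 genes. The dissection was checked with genes that differ between the regions. MEIS2, a transcription factor gene, read 9.31 to 9.82 in newborn and 9.27 to 9.71 in 6-month EC, against at most 8.74 on any newborn or 6-month array of the dentate gyrus (DG), CA3 or the subiculum (Sub). CUX2, which marks upper cortical layers, had means of 8.25 and 8.37 in EC and between 5.76 and 7.42 in those regions. ZFPM2, high in DG at 9.67 and 9.41, had means of 7.65 and 7.81 in EC. Other genes checked did not single out EC. LAMP5 averaged 6.33 and 6.10 in EC and between 6.41 and 7.54 in the other regions. FEZF2 averaged 7.08 and 7.41 in EC and between 7.80 and 8.82 there. A list of upper-layer genes averaged 8.29 and 8.32 in EC and between 7.56 and 8 there. A list of deep-layer genes averaged 7.065 and 7.19 in EC, below 7.34 and 7.31 in Sub. The log2 ratio of the 3' to the 5' control probe set of GAPDH, which rises as long RNA is lost, averaged 1.37 ± 0.095 (SD, n = 4) in newborns and 1.37 ± 0.18 at 6 months. The same ratio for actin averaged 3.60 ± 0.133 in newborns, with the highest array at 3.76, and 3.90 ± 0.213 at 6 months. Animal 8 of the 1-year group, which enters only the estimate of the spread, stood apart with a GAPDH ratio of 2.79. Its actin ratio stood apart the other way, at 2.455 against 3.84 to 4.06 in the other 1-year animals. Counts are therefore also given without animal 8, in a fit that called 6.16% of all genes.

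Between birth and 6 months, genes of young neurons, collagens and other matrix genes, ribosomal protein genes and the RNA-binding gene YBX1 were among those that fell in the EC. Genes of synaptic release, the thyroid hormone receptor gene THRB and the activity-induced gene EGR4 were among those that rose. Of 19775 genes tested, 525 (2.65%) were called at an adjusted p under 0.05 (limma, Benjamini-Hochberg), 282 (1.43%) higher and 243 (1.23%) lower at 6 months. The split turned with the scaling, to 249 higher and 264 lower with values as deposited and to 191 higher and 246 lower after median centring of the arrays. The 4 infant arrays did not overlap the 4 newborn arrays for 477 of them. Over all genes, 1719 (8.69%) did not overlap, 761 (3.85%) higher and 958 (4.84%) lower in infants. Changes were mostly modest: the median size among called genes was 0.59, against a median SE of 0.114 over all genes. Only 35 called genes changed at least 2-fold, 9 higher and 26 lower. Without animal 8 of the 1-year group 1218 genes were called, including all 525. In fits that left out 1 of the 8 arrays in turn, 188 genes (94 higher, 94 lower; 0.951% of all genes) were called in every fit, and the count ran from 229 without newborn 16 to 663 without newborn 15.

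**Figure D1:**
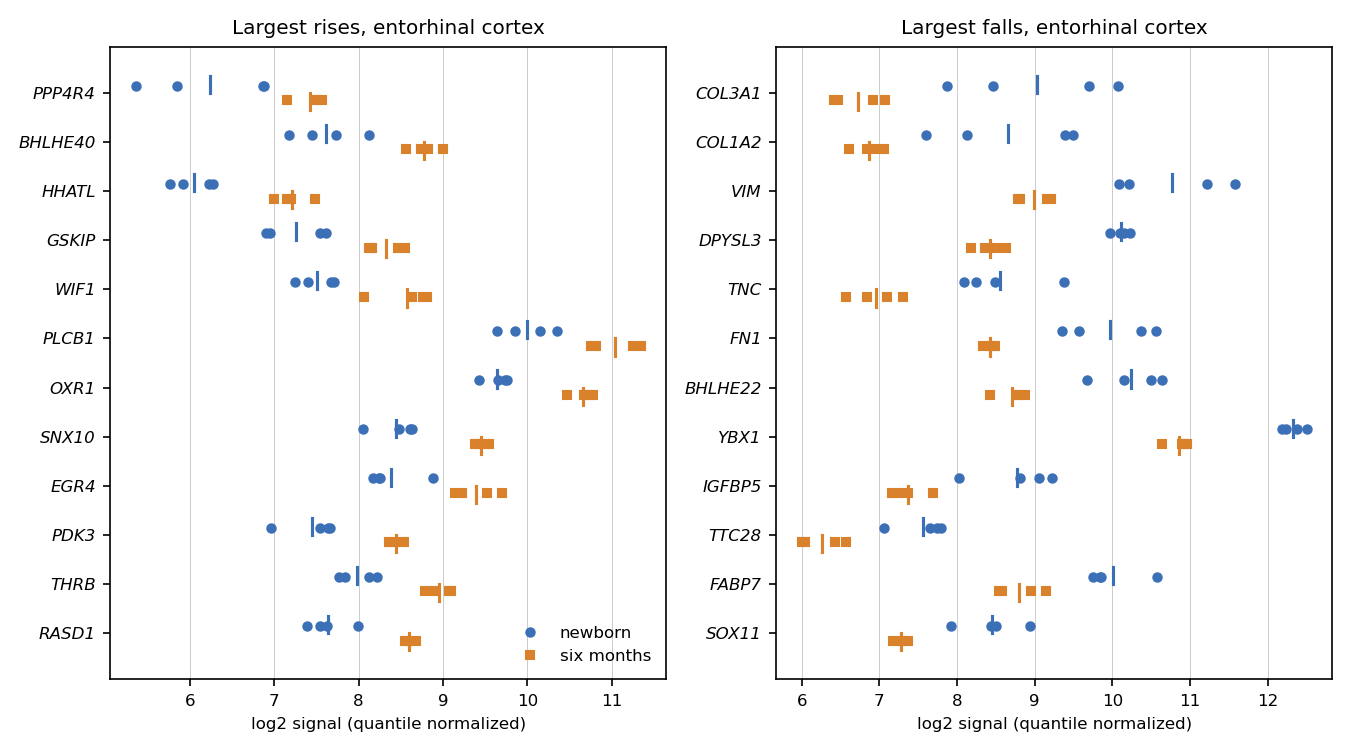
Log2 signal (quantile normalized, horizontal axis) of the 12 genes with the largest rises (left) and the 12 with the largest falls (right) in the entorhinal cortex. Each point is 1 animal, blue circles newborn and orange squares 6 months, with a vertical bar at each mean of 4. Genes were picked from called genes whose ages do not overlap, so the gaps between ages were fixed by the choice, and the newborn points of COL3A1, COL1A2, VIM and FN1 split into a higher and a lower pair.

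The list of immature neurons and neurite outgrowth had 30 measured genes, of which 10 fell, 0 rose, and the median change was -0.24, while the median over all genes was -4e-04. Below, newborn values are given in the order of animals 13, 14, 15 and 16 and infant values in the order 9, 10, 11 and 12. For the 12 largest rises and 12 largest falls, shown by array above, a lack of overlap was a condition of being named. DPYSL3, a cytoskeletal regulator of growing axons, read 10.22, 10.10, 9.98 and 10.15 in newborns and 8.36, 8.18, 8.63 and 8.52 in infants. It fell by 1.69 (SE 0.125, adjusted p = 2.43e-07), and the lowest newborn lay well above the highest infant. Of its 2 other probe sets, both dimmer, 1 moved the same way. SOX11, a transcription factor of newly born neurons, read 8.51, 7.93, 8.94 and 8.44 in newborns and 7.17, 7.30, 7.36 and 7.29 in infants. It fell by 1.17 (SE 0.163, adjusted p = 0.000487), and infants were closely grouped while newborns spread more widely. DCX, the microtubule protein doublecortin of migrating neurons, read 9.01, 8.32, 8.92 and 8.76 in newborns and 7.52, 7.55, 7.61 and 7.74 in infants, a fall of 1.15 (SE 0.140, adjusted p = 0.000111). Both groups were again apart. The related transcription factor SOX4 fell by 1.02 and the surface glycoprotein CD24 by 1.01. ST8SIA2, which adds polysialic acid to adhesion molecules, fell by 0.76 (adjusted p = 0.00781) and DPYSL5, a relative of DPYSL3, by 0.75 (adjusted p = 0.00856). These 7 genes were called in every fit with 1 array left out.

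The other 3 called members depended on single arrays. FABP7, the brain fatty acid binding protein of radial glia, read 9.86, 9.84, 9.75 and 10.58 in newborns and 8.57, 8.54, 8.95 and 9.15 in infants. Its fall of 1.21 (SE 0.288, adjusted p = 0.0250) missed the threshold without newborn 16 (-1.01, adjusted p = 0.120), which was the highest array, and also without infants 9, 10 or 11 (adjusted p between 0.0573 and 0.0886). MARCKSL1 fell by 1.08 and NNAT (neuronatin) by 0.65, and none of the 3 was called without infant 11 or without newborn 16. The list did not move as a block: STMN2 changed by 0.05 (adjusted p = 0.952) and GAP43, the growth cone protein, by 0.05 (adjusted p = 0.958), and both were among the brighter genes at either age (lowest arrays 12.62 and 11.98). Without animal 8 of the 1-year group 12 members were lower and 1 higher. The mean level of the list ran from 9.97 to 9.99 in newborns and from 9.55 to 9.68 in infants.

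COL3A1 and COL1A2, collagen genes of meningeal cells and fibroblasts, had the largest falls among called genes. COL3A1, a fibrillar collagen, read 10.07, 8.46, 7.87 and 9.70 in newborns and 6.47, 6.92, 6.42 and 7.08 in infants. It fell by 2.31 (SE 0.442, adjusted p = 0.00635), and 3 of its 4 other probe sets moved the same way. COL1A2, which codes for a chain of type I collagen, read 9.50, 8.13, 7.60 and 9.39 in newborns and 6.93, 6.84, 6.61 and 7.06 in infants, a fall of 1.79 (SE 0.322, adjusted p = 0.00372). FN1, the matrix protein fibronectin, read 10.37, 9.57, 9.36 and 10.56 in newborns and 8.33, 8.49, 8.43 and 8.44 in infants, a fall of 1.54 (SE 0.226, adjusted p = 0.000697) shared by 3 of its 6 other probe sets, the bright ones. For each of these genes, newborns 13 and 16 were the highest arrays. VIM (vimentin), the intermediate filament of radial glia and mesenchymal cells and no member of the list, had the same order, with 11.58, 10.21, 10.08 and 11.22 in newborns and 8.78, 8.81, 9.16 and 9.21 in infants. It fell by 1.78 (SE 0.284, adjusted p = 0.00153), while its other probe set was dim at both ages (4.24 and 4.26).

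Of 19 measured members of the meninges and fibroblast list, 9 fell and 0 rose, with a median change of -0.69. Without animal 8 of the 1-year group 12 fell. Basement membrane collagens were among them: COL4A1 fell by 0.69 (adjusted p = 0.000314) and COL4A2 by 0.75 (adjusted p = 0.00731). CCDC80, a secreted matrix protein, fell by 1.06, and the beaded-filament collagen COL6A3 by 0.98. FBLN1 (fibulin) fell by 0.70 and IGFBP2, an insulin-like growth factor binding protein, by 0.83. COL1A1, which codes for the other chain of type I collagen, changed by 0.00 (adjusted p = 0.997) at 6.89 to 7.18 on all 8 arrays. LUM (lumican) read 4.23 to 4.56 and SLC6A13, a transporter of leptomeningeal cells, 5.32 to 5.61, with no call. Means of these genes at both ages varied little over EC, DG, CA3 and Sub: 6.86 to 7.23, 4.25 to 4.45 and 5.42 to 5.52. A steady gene and a probe set that does not respond cannot be told apart here. DCN (decorin), at 10.53, 9.41, 9.21 and 9.69 against 8.67, 8.77, 8.82 and 9.12, was separated but just missed the threshold (adjusted p = 0.0575).

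The mean level of this list was 7.85, 7.16, 7.15 and 7.64 in the newborns and 6.64, 6.76, 6.75 and 6.76 in the infants. Newborns 13 and 16 lay above the other newborns in EC, while in Sub all 4 newborns lay between 6.51 and 6.66. In CA3 the newborns (6.73 to 6.85) also lay above the infants (6.45 to 6.58). Without those 2 arrays the median change was -0.36 and 4 members fell, in a fit with 2 newborns in which 98 genes were called in all, 95 of them among the 525. Leaving out 1 array at a time gave between 6 and 11 called members, with 6 without newborn 13, newborn 16 or infant 9. COL1A2, COL3A1, COL4A1, COL4A2, FN1 and CCDC80 were called in every such fit. How much of the collagen falls goes with the amount of meningeal tissue in the newborn pieces was not tested.

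**Figure D2:**
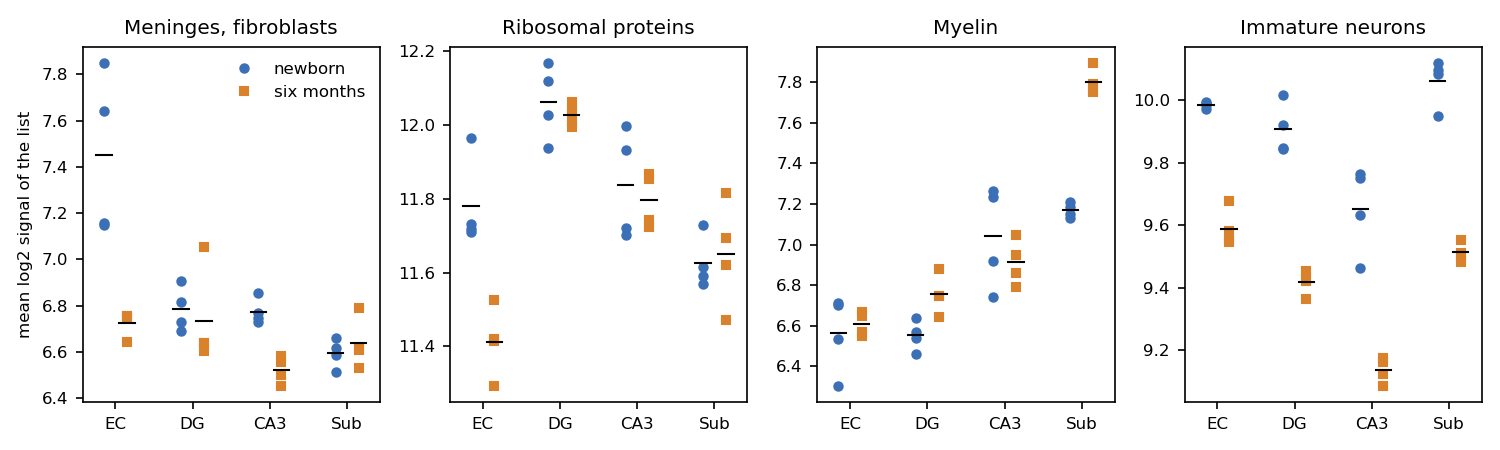
Mean log2 signal of 4 gene lists on each array (vertical axis, scaled separately for each panel) in the entorhinal cortex (EC), dentate gyrus (DG), CA3 and subiculum (Sub). Points are animals, blue circles newborn and orange squares 6 months, and bars are means of 4. The ribosomal protein list separates the ages in EC alone, the fibroblast list in EC and, by less, in CA3, the myelin list in Sub and, narrowly, in DG but not in EC or CA3, and the immature neuron list does so in all 4 regions.

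Of 23 genes of the matrix around neurons 5 fell, and of 15 genes of oligodendrocyte precursors 4 fell, with 0 rises in either list. TNC, BCAN and VCAN stand in both lists, and 8 of the 23 matrix genes had a positive change. TNC, the matrix glycoprotein tenascin-C, read 8.24, 8.09, 8.48 and 9.38 in newborns and 6.57, 7.30, 6.84 and 7.09 in infants. It fell by 1.60 (SE 0.256, adjusted p = 0.00153), and the call held in every fit with 1 array left out. VCAN (versican) read 8.03, 6.70, 8.23 and 7.78 in newborns and 6.57, 6.67, 6.91 and 6.32 in infants. It fell by 1.07 (adjusted p = 0.0194), but newborn 14 lay among the infants and the call was lost in 6 of the 8 fits with 1 array left out. BCAN (brevican), CSPG5 and the link protein HAPLN1, other parts of the proteoglycan matrix, fell by 0.68, 0.42 and 0.62, and LHFPL3, of precursors, by 0.66. Without animal 8 of the 1-year group 7 matrix and 6 precursor genes fell. Only TNC among the called members was called in every leave-one-out fit, and without newborn 16 it was the only member of either list called. PDGFRA, the receptor that defines the precursors, changed by -0.39 (adjusted p = 0.167). ACAN (aggrecan), the main proteoglycan of mature perineuronal nets, averaged 6.30 at birth and changed by -0.08 (adjusted p = 0.865).

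Growth factors and their binding proteins gave 4 falls and 1 rise among 30 measured. IGFBP5 read 9.23, 8.02, 8.81 and 9.06 in newborns and 7.16, 7.37, 7.69 and 7.26 in infants, and fell by 1.41 (SE 0.254, adjusted p = 0.00387). IGF1, insulin-like growth factor 1, read 7.32, 7.18, 7.78 and 7.36 in newborns and 6.89, 6.76, 6.73 and 6.32 in infants, a fall of 0.73 (adjusted p = 0.00379). Both calls held in every fit with 1 array left out. Their other probe sets moved less: those of IGFBP5 changed by -0.577, -0.725, 0.109, 0.103 and -0.259. Those of IGF1 changed by -0.317, 0.011, -0.152 and -0.122. PTN (pleiotrophin), a growth factor of glia, fell by 0.76 and was called in none of 4 fits that left out 1 infant. FGF12, an intracellular channel regulator despite its name, rose by 0.59 (adjusted p = 0.0152), which missed the threshold without infant 11 (0.52, adjusted p = 0.0661), newborn 14 (0.50, adjusted p = 0.0592) or newborn 16 (0.51, adjusted p = 0.0751). Without animal 8 6 members fell and 1 rose.

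All 27 measured ribosomal protein genes had a negative change, from -0.68 to -0.12 with a median of -0.31, and 6 of them fell at the threshold. RPL19 read 10.95, 11.18, 10.86 and 11.35 in newborns and 10.45, 10.31, 10.35 and 10.53 in infants. It fell by 0.68 (SE 0.118, adjusted p = 0.00282), and the groups stood apart. RPS12 fell by 0.67 and RPL11 by 0.60, and these 3 were called in every fit with 1 array left out. The call of RPS12 was lost when all its probe sets were averaged (-0.35, adjusted p = 0.0655). RPS19, RPS14 and RPL18, which fell by 0.64, 0.50 and 0.64, were not called without infant 10 or newborn 16. Without animal 8 of the 1-year group 12 members fell. The list averaged 11.72, 11.71, 11.73 and 11.96 in newborns and 11.41, 11.29, 11.42 and 11.53 in infants, so every newborn lay above every infant. These genes have many near-identical copies in primate genomes, and the probe sets cannot tell such copies apart. Without newborns 13 and 16 the median was -0.29 and 0 members were called.

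Among regulators of RNA and chromatin, YBX1 fell most. It codes for a cold-shock-domain protein that binds RNA and DNA, and read 12.18, 12.23, 12.38 and 12.51 in newborns and 10.63, 10.90, 10.97 and 10.96 in infants. The fall was 1.46 (SE 0.306, adjusted p = 0.0113), with tight groups far apart. Of its 2 other probe sets, a bright one fell from 10.87 to 8.98 and one near 6.76 stayed there. The splicing factor PTBP1 fell by 0.53, and no other of the 36 RNA-binding genes was called. Of 38 chromatin regulators 5 fell and 1 rose. TET3, which oxidises methylcytosine, read 8.45, 8.36, 8.47 and 8.21 in newborns and 7.66, 7.62, 7.38 and 7.46 in infants, a fall of 0.84 (SE 0.163, adjusted p = 0.00689). Its other, dimmer probe sets changed by 0.023 and -0.195. The histone deacetylase gene HDAC4 fell by 0.51 while HDAC9 rose by 0.43, and all 3 were called in every fit with 1 array left out. With all probe sets averaged HDAC4 (-0.27, adjusted p = 0.0594) and HDAC9 (0.20, adjusted p = 0.0828) were not called. The nucleosome-binding genes HMGN1 and HMGN2 fell by 0.48 and 0.47 and SMARCD3 by 0.43. Without newborn 16, PTBP1 (adjusted p = 0.0712), HMGN1 (adjusted p = 0.0811) and HMGN2 (adjusted p = 0.0617) missed the threshold. Without animal 8 7 chromatin regulators fell and 1 rose.

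BHLHE22, a transcription factor of differentiating cortical projection neurons, read 10.64, 9.68, 10.50 and 10.14 in newborns and 8.77, 8.42, 8.88 and 8.78 in infants. It fell by 1.53 (SE 0.243, adjusted p = 0.00153), and its other probe set moved the same way. TTC28 read 7.74, 7.05, 7.66 and 7.80 in newborns and 6.43, 6.00, 6.57 and 6.04 in infants, a fall of 1.30 (SE 0.148, adjusted p = 6.8e-05). Newborn 14 was the lowest newborn for both. GRP (gastrin-releasing peptide), a peptide gene in the list of hippocampal field neurons, read 7.88, 7.41, 7.24 and 7.15 in newborns and 6.19, 5.84, 6.51 and 6.73 in infants, a fall of 1.10 (SE 0.182, adjusted p = 0.00192). The NMDA receptor subunits GRIN3A and GRIN2D, both known for high levels in the young brain, fell by 0.79 (adjusted p = 0.00101) and 0.55 (adjusted p = 0.0165). GRIN3A held in every fit with 1 array left out, while GRIN2D was lost without infant 10 or 11 or newborn 14 or 16 (adjusted p between 0.0511 and 0.0690). The other 22 of 24 glutamate receptor genes were not called: GRIN2A, a subunit of mature synapses, changed by 0.49 (adjusted p = 0.171) and GRIN2B by 0.44 (adjusted p = 0.468). Without animal 8 2 glutamate receptor genes rose and 3 fell.

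Interneuron genes gave 3 falls and 0 rises among 21. CALB2, which marks calretinin cells, read 8.16, 8.96, 8.09 and 8.23 in newborns and 7.62, 7.83, 7.52 and 7.80 in infants. It fell by 0.67 (SE 0.142, adjusted p = 0.0126), with newborn 14 well above the rest. SST (somatostatin) fell by 0.53 (adjusted p = 0.0191) and LHX6, a transcription factor of cells from the medial ganglionic eminence, by 0.59 (adjusted p = 0.0338), although the other probe set of LHX6 changed by 0.22. The call of CALB2 was lost without infant 11 (adjusted p = 0.0549), that of SST without infant 10 or 11 or newborn 16, and that of LHX6 in 6 of the 8 such fits. PVALB (parvalbumin) changed by 0.46 (adjusted p = 0.0763) and GAD2, an enzyme that makes GABA, by 0.11 (adjusted p = 0.848). Without animal 8 6 interneuron genes fell and 1 rose.

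The 12 largest rises covered varied functions and ran from 0.96 to 1.19. BHLHE40, a transcriptional repressor tied to the circadian clock, read 8.12, 7.73, 7.18 and 7.44 in newborns and 8.82, 8.74, 8.56 and 8.996 in infants. It rose by 1.16 (SE 0.206, adjusted p = 0.00342). THRB, the thyroid hormone receptor beta, read 8.12, 7.77, 8.21 and 7.83 in newborns and 9.10, 9.07, 8.88 and 8.78 in infants, a rise of 0.97 (SE 0.123, adjusted p = 0.000156). Infants were closely grouped for both, and both other probe sets of THRB moved the same way. PLCB1, a phospholipase that couples muscarinic and glutamate receptors to calcium release, read 10.15, 9.85, 10.35 and 9.64 in newborns and 11.25, 11.34, 10.75 and 10.82 in infants. Its rise of 1.04 (SE 0.146, adjusted p = 0.000509) was 0.50 (adjusted p = 0.206) when all its probe sets were averaged. OXR1, which protects cells from oxidative damage, read 9.76, 9.65, 9.73 and 9.42 in newborns and 10.78, 10.72, 10.67 and 10.47 in infants, a rise of 1.02 (SE 0.120, adjusted p = 0.000102) shared by all 4 other probe sets. WIF1, a secreted inhibitor of Wnt ligands, read 7.24, 7.67, 7.40 and 7.71 in newborns and 8.76, 8.81, 8.64 and 8.06 in infants, and rose by 1.06 (SE 0.189, adjusted p = 0.00356). Infant 12 was the lowest infant for OXR1 and WIF1.

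PPP4R4, a regulatory subunit of protein phosphatase 4, had the largest rise among called genes. It read 6.88, 5.36, 6.87 and 5.85 in newborns and 7.57, 7.48, 7.52 and 7.15 in infants, a rise of 1.19 (SE 0.250, adjusted p = 0.0117), with newborns split into a higher and a lower pair. Without newborn 16 it was 1.06 and missed the threshold (adjusted p = 0.0609). HHATL rose by 1.16 (adjusted p = 0.00154) and GSKIP, a partner of glycogen synthase kinase 3, by 1.07 (adjusted p = 0.000564). SNX10, a sorting protein of endosomes, rose by 1.01, PDK3, which inhibits pyruvate dehydrogenase, by 0.99, and RASD1, a Ras-like protein induced by glucocorticoids, by 0.96. Among the list genes RGS4, a brake on G protein signalling and the only one of 23 candidate genes for schizophrenia to be called, read 12.04, 12.06, 11.78 and 11.71 in newborns and 12.85, 12.63, 12.96 and 12.55 in infants. It rose by 0.85 (SE 0.131, adjusted p = 0.00122), with no overlap.

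Of 28 genes of synaptic vesicles and transmitter release 5 rose and 0 fell, with a median change of 0.19. SNAP25, a membrane protein of the fusion machinery, read 12.56, 12.39, 12.51 and 12.36 in newborns and 13.25, 13.07, 13.12 and 12.996 in infants. It rose by 0.66 (SE 0.0924, adjusted p = 0.000507), and both groups were narrow. CPLX1 (complexin), which clamps that machinery until calcium enters, read 8.06, 8.60, 7.99 and 8.23 in newborns and 9.27, 9.22, 9.12 and 8.78 in infants, a rise of 0.88 (SE 0.175, adjusted p = 0.00823). Both were called in every fit with 1 array left out. NSF, which recycles fusion complexes, rose by 0.59, the calcium sensor SYT1 by 0.52 and SV2B by 0.46. Without newborn 16 NSF (0.45, adjusted p = 0.0534), SYT1 (0.40, adjusted p = 0.0914) and SV2B (0.36, adjusted p = 0.126) were not called, and neither other probe set of SV2B, both dim, moved the same way. Without animal 8 of the 1-year group 10 members rose and 2 fell. Of 23 genes of the postsynaptic density only the calcineurin subunit PPP3CA rose (0.59, adjusted p = 0.0237), and it was lost in 5 of the 8 fits with 1 array left out, while without animal 8 there were 2 rises.

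Ion pumps and channels of the list of sodium and calcium channels gave 4 rises and 0 falls among 24. ATP2B1, a plasma membrane calcium pump, read 9.80, 9.24, 9.73 and 9.09 in newborns and 10.24, 10.46, 10.29 and 10.08 in infants. It rose by 0.80 (SE 0.136, adjusted p = 0.00239) and was the 1 member called in every leave-one-out fit. The pump ATP2B3, the sodium channel SCN1A and its partner SCN3B rose by 0.59, 0.60 and 0.59 and were not called without infant 9, 10 or 11 or newborn 16. Of 27 potassium channel genes KCNIP4 (0.64) and KCNMA1 (0.46) rose, and of 14 genes of GABA receptors and chloride transport GABRA4 (0.79) and GABRA2 (0.44) rose. Neither pair was called without newborn 16, where adjusted p ran from 0.0799 to 0.157. SLC12A5, the chloride transporter that makes GABA inhibitory, had means of 10.05 in newborns and 10.47 in infants and was not called (adjusted p = 0.0900). Without animal 8 5 genes of the sodium and calcium list rose and 1 fell, and 4 rose in the potassium channel list and 4 in the GABA receptor list.

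Immediate early genes, which neurons switch on within minutes of activity, gave 3 rises and 0 falls among 20, with a median change of 0.33, the highest of the 36 lists. EGR4 read 8.25, 8.88, 8.25 and 8.18 in newborns and 9.70, 9.52, 9.22 and 9.14 in infants. It rose by 1.01 (SE 0.169, adjusted p = 0.00215), with newborn 14 high but still below every infant. JUNB rose by 0.52 (adjusted p = 0.0110), and both were called in every fit with 1 array left out. NR4A3 rose by 0.74 (adjusted p = 0.0227), was not called without infants 10 or 12 or newborns 13 or 16, and 1 of its 2 other probe sets, both dim, moved the same way. FOS, at 7.07 and 7.56, and EGR1, at 10.21 and 10.70, had group means that differed by 0.49 in each case and were not called (adjusted p = 0.406 and 0.199). Without animal 8 5 immediate early genes rose.

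Heat shock and stress genes gave 4 rises and 1 fall among 19: the chaperone HSPH1 rose by 0.83 (adjusted p = 0.00153), HSP90AA1 by 0.70, HSPA4 by 0.52 and DNAJA1 by 0.44, and DDIT4, an inhibitor of mTOR signalling, fell by 0.47. Of these, HSPH1 and HSPA4 were called in every fit with 1 array left out, but HSPA4 was not called after median centring (adjusted p = 0.0521) or with all its probe sets averaged (0.32, adjusted p = 0.155). Without animal 8 5 stress genes rose and 2 fell. The adhesion molecules NRCAM and CNTN1 rose by 0.74 (adjusted p = 0.000111) and 0.86 (adjusted p = 0.00197) and PLXND1, a semaphorin receptor, fell by 0.42, among 40 guidance and adhesion genes, and all but PLXND1 held in every such fit. NRCAM read 8.96, 8.84, 9.09 and 8.84 in newborns and 9.65, 9.71, 9.68 and 9.65 in infants. The neurofilament NEFM rose by 0.57 and the axon scaffold ANK3 by 0.48, while the tubulin TUBB6, high in newborns 13 and 16, fell by 0.94. All 3 were lost without newborn 16, at adjusted p between 0.0727 and 0.162. PDYN, the opioid precursor prodynorphin, rose by 0.83 (adjusted p = 0.00397) and SCG3, a protein of secretory granules, by 0.64, while SCG5 fell by 0.40, beside SST, among 32 neuropeptide genes, of which only PDYN held in every such fit. CYCS (cytochrome c) and NDUFB8, a subunit of respiratory complex I, rose by 0.49 and 0.39, were not called without infant 9, 10 or 11 (adjusted p between 0.0515 and 0.103), and were alone among 30 respiration genes. Without animal 8 the guidance list had 3 rises and 3 falls, the axon and dendrite cytoskeleton list 3 rises and 1 fall, the neuropeptide list 2 rises and 6 falls and the respiration list 2 rises.

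**Figure D3:**
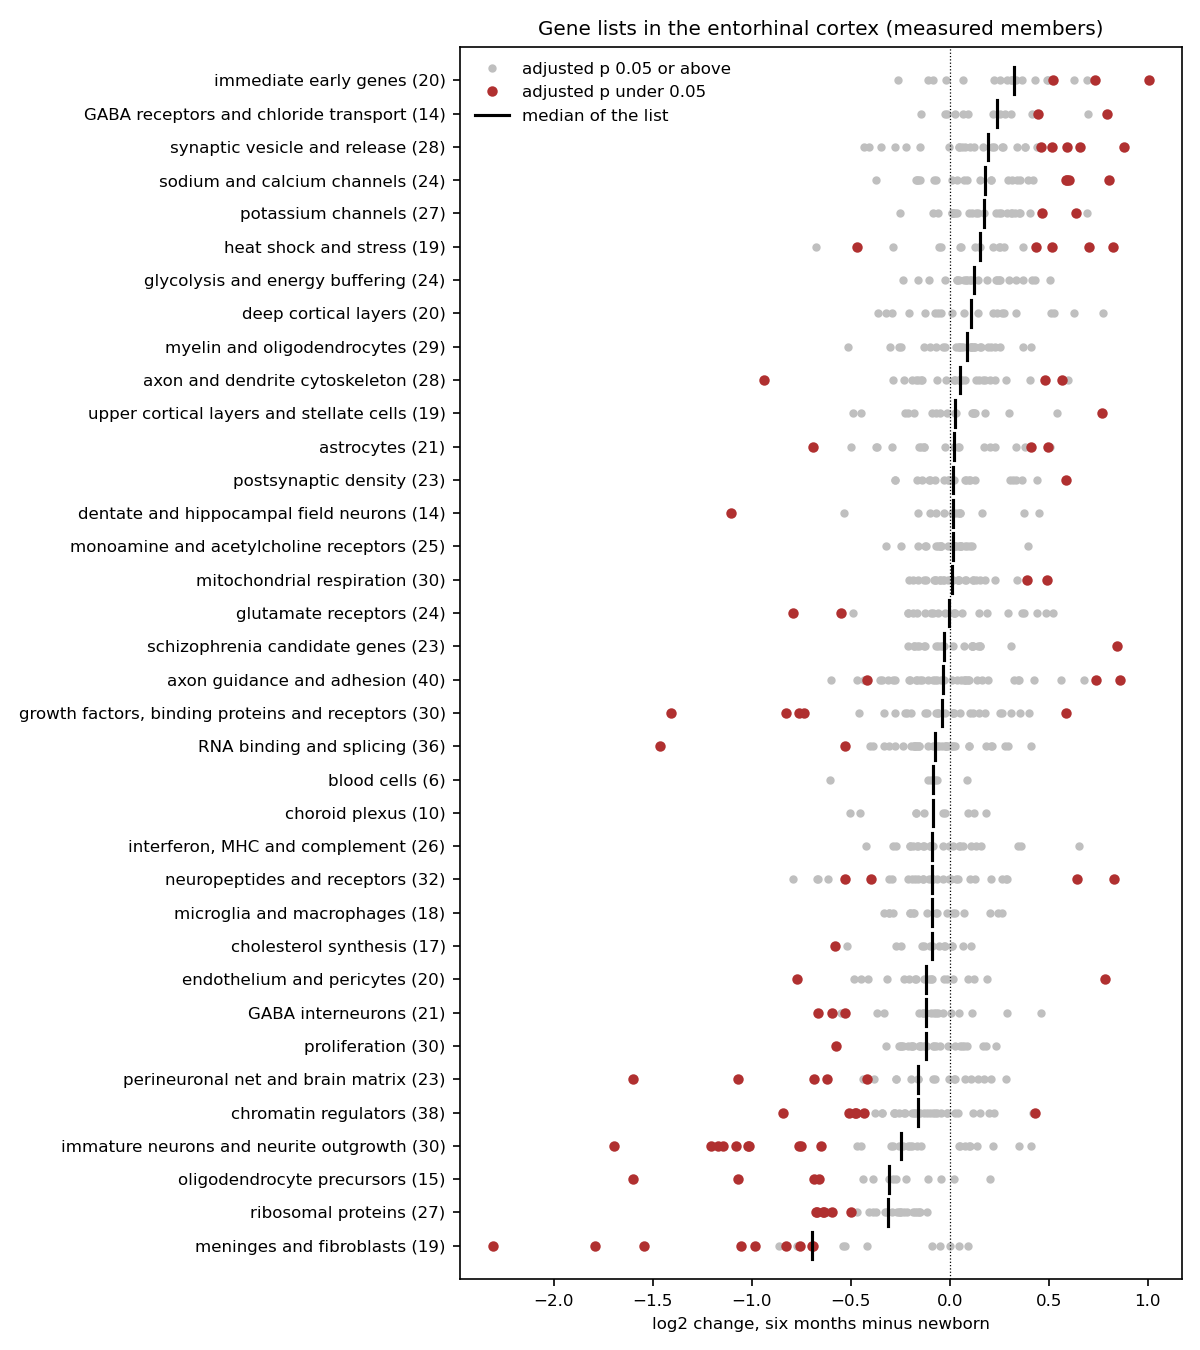
Log2 change in the entorhinal cortex, 6 months minus newborn, of the measured members of each gene list, whose number is in brackets (horizontal axis). Each point is 1 gene, red where its adjusted p was under 0.05 and grey otherwise, and the black bar is the median of the list, by which lists are ordered. The meninges and fibroblast list has the lowest median (-0.69) and the immediate early genes the highest (0.33).

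Lists for mature glia and blood vessels differed: 14.3% of astrocyte genes and 10% of vascular genes were called, against 2.65% of all genes. Of 29 myelin genes 0 were called, with a median change of 0.09, and MBP (myelin basic protein) read 9.25, 10.73, 11.22 and 11.23 in newborns and 10.59, 10.78, 11.15 and 10.74 in infants. The ages overlapped and newborn 13 was lowest. Of 21 astrocyte genes SLC1A2, the main glutamate transporter, and SPARCL1 rose by 0.50 and 0.41 and SOX9, a glial transcription factor, fell by 0.69 (adjusted p = 0.00869), which was the only one called in every fit with 1 array left out. GFAP changed by -0.13 (adjusted p = 0.920). RGS5, of pericytes, rose by 0.79 (adjusted p = 0.00372) and ITM2A fell by 0.77 among 20 vascular genes, and only RGS5 held in every such fit. With all its probe sets averaged RGS5 was not called (0.30, adjusted p = 0.114). Genes of microglia (18), choroid plexus (10), blood cells (6), interferon, MHC and complement (26), monoamine and acetylcholine receptors (25) and glycolysis (24) had 0 calls. In 30 proliferation genes the single call was MCM5, a replication helicase subunit, which fell by 0.57 (adjusted p = 0.00372), and in 17 cholesterol synthesis genes NSDHL, which fell by 0.58 and was not called without infant 9 or newborn 16. Of 19 genes of upper layers and stellate cells SERPINI1 (neuroserpin) rose by 0.77 (adjusted p = 0.00167), and of 20 deep-layer genes 0 were called. Without animal 8 some lists with 0 calls gained them: 3 glycolysis genes and 1 myelin gene rose, 2 deep-layer genes rose and 1 fell, and 1 microglia and 1 choroid plexus gene fell. In that fit 4 vascular, 2 astrocyte, 3 cholesterol synthesis and 2 upper-layer genes fell and 1, 3, 0 and 1 rose.

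The later EC arrays show where these levels went, as a description over 4 animals per age. DPYSL3 averaged 8.42 at 6 months, 8.49 at 1 year and 8.11 in adults, and SOX11 7.28, 7.31 and 7.08, so most of the fall from birth had taken place by 6 months. COL3A1 averaged 6.72, 6.50 and 6.23. THRB, at 8.96, 9.24 and 9.27, and SNAP25, at 13.11, 13.16 and 13.15, stayed near the infant level. Other genes went back toward the newborn level. BHLHE22 averaged 10.24 at birth, 8.71 at 6 months, 8.86 at 1 year and 9.63 in adults, and IGFBP5 averaged 8.78, 7.37, 7.75 and 8.61. EGR4 averaged 8.39, 9.40, 8.93 and 8.16 and CPLX1 8.22, 9.10, 9.02 and 8.33 at the same ages, so adults lay near newborns for both.

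**Figure D4:**
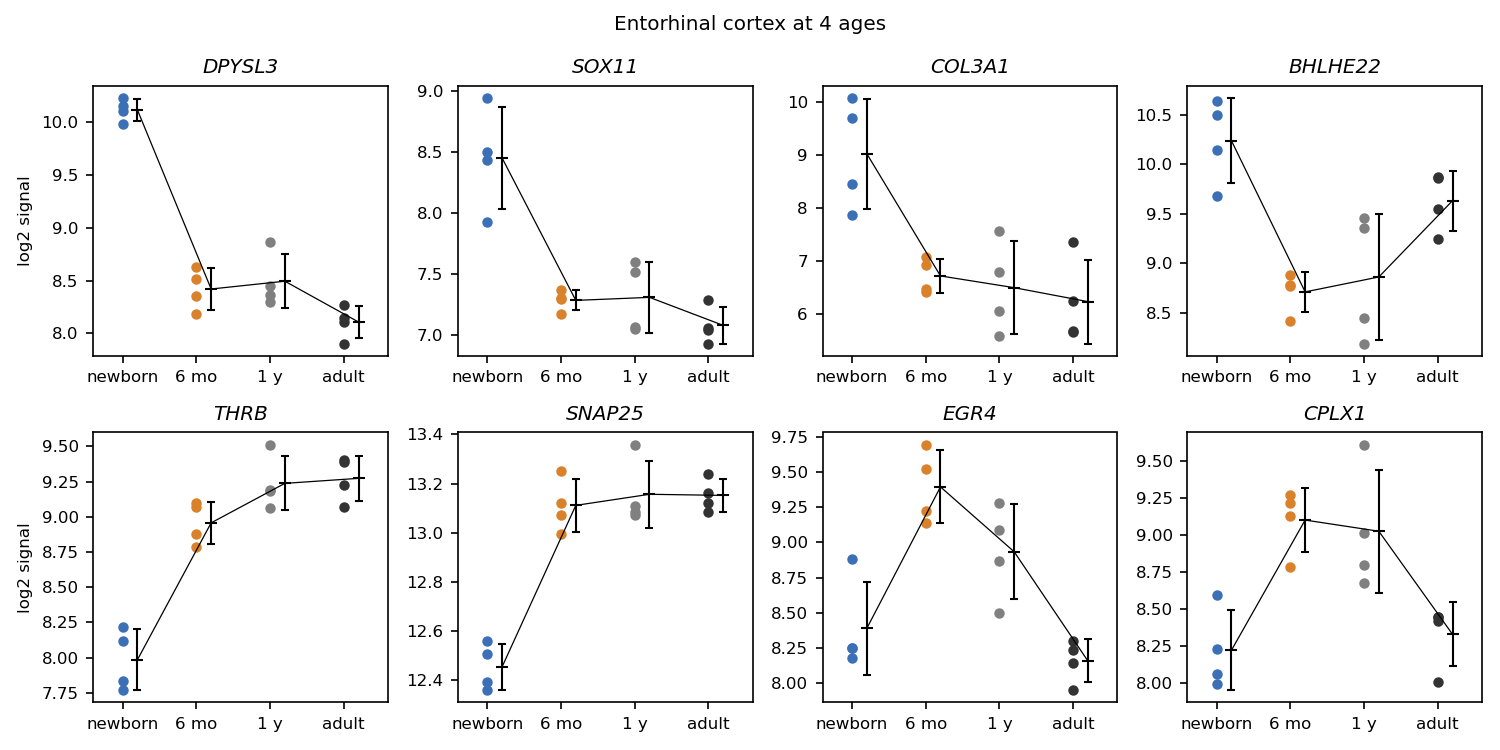
Log2 signal of 8 genes in the entorhinal cortex at birth, 6 months (6 mo), 1 year (1 y) and in adults; each panel has its own vertical scale. Points are animals (4 per age), and the line joins means with bars of 1 SD. DPYSL3, SOX11 and COL3A1 stay low and THRB and SNAP25 stay high after 6 months, while BHLHE22, EGR4 and CPLX1 have adult means between or near the newborn values.

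Whether the EC changed differently from its neighbours was tested on each animal's EC value minus the mean of its DG, CA3 and Sub values. CA1 was left out because its GAPDH ratio rose from 1.37 in newborns to 2.74 at 6 months. Newborn and 6-month means of that ratio were 1.34 and 1.495 in Sub, with CA3 at 1.14 and 1.12 and DG at 1.06 and 1.03. Mean actin ratios rose in EC (3.60 to 3.90), CA1 (3.77 to 4.00) and, by less, Sub (3.73 to 3.81). They were lower at 6 months in CA3 (3.475, then 3.39) and DG (3.32, then 3.25). The part of RNA quality in the differences between regions was not tested. The age change in expression differed for 557 genes (2.82%), more positive in EC for 375 (1.9%) and more negative for 182 (0.92%). The same age step gave 314 called genes in DG (1.59%), 432 in CA3 (2.18%) and 601 in Sub (3.04%), each fitted on its own 16 arrays. Of the 243 genes that fell in EC, 217 had a negative change in DG, 227 in CA3 and 194 in Sub, and 58, 79 and 55 of them were called there. Of the 282 that rose in EC, 177, 220 and 180 had a positive change in DG, CA3 and Sub, and 20, 32 and 23 were called. The sign was the same for 75%, 85.1% and 71.2% of the EC genes called, against 56.5%, 59.9% and 54.5% of all genes. These are the same animals on other arrays.

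The collagen genes COL1A2 and COL3A1 stood at the far end of this difference. EC minus the other regions for COL1A2 was 2.98, 2.22, 1.75 and 3.20 in newborns and 1.00, 0.09, 0.71 and 1.00 in infants. The difference between ages was -1.83 (adjusted p = 0.000457), every newborn lying above every infant. For COL3A1 it was 3.17, 2.10, 1.85 and 3.20 in newborns and 0.83, 0.33, 0.91 and 1.21 in infants, a difference of -1.76 (adjusted p = 0.000556), and for VIM the difference was -1.41 (adjusted p = 0.000693). COL4A1 and COL4A2 had no called difference, and their means fell in DG, CA3 and Sub as well. COL4A1 went from 6.74 to 6.39 in DG, from 6.98 to 6.38 in CA3 and from 6.97 to 6.51 in Sub. Of the 19 meninges and fibroblast genes 7 had a more negative change in EC. One was PTGDS, a prostaglandin synthase of leptomeninges and oligodendrocytes, which in EC read 14.07, 12.42, 13.06 and 13.07 in newborns and 13.01, 12.57, 13.01 and 12.37 in infants, with no call. It changed by 1.22 in DG, 0.61 in CA3 and 2.24 in Sub, so its difference was -1.77 (adjusted p = 0.000291). COL1A2, COL3A1 and PTGDS are members of the meninges and fibroblast list, so its level in EC, given above, is no separate measure. The part of meningeal tissue in these differences was not tested. For ribosomal proteins the median change was -0.31 in EC, -0.01 in DG, -0.04 in CA3 and 0.02 in Sub, and 8 of 27 had a more negative change in EC, RPL19 by 0.69 (adjusted p = 0.00270) and RPL11 by 0.63 (adjusted p = 0.00945). Without animals 13 and 16, in a fit that called 82 positive and 39 negative differences in all, COL1A2, COL3A1, PTGDS and RPL19 were the members of these 2 lists still called.

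The immature neuron genes, in contrast to these, showed no called negative difference. Against DG and Sub only, 1 of them (MARCKSL1) was more negative and 5 were more positive. That fit called 337 negative and 526 positive differences over all genes. The median change of the immature neuron genes was -0.24 in EC, -0.32 in DG, -0.44 in CA3 and -0.47 in Sub. DPYSL3 changed by -1.27 in DG, -1.05 in CA3 and -2.04 in Sub, DCX by -1.26, -0.93 and -1.45, and SOX11 by -1.17, -0.95 and -0.95. For these genes the differences between EC and the rest were -0.24, 0.07 and -0.15 and were not called (SE 0.114, 0.141 and 0.149, adjusted p = 0.368, 0.914 and 0.765). Among all 30, DCLK1, NFIB and ELAVL4 had a more positive change in EC. DCLK1, a relative of doublecortin, changed by 0.35 in EC and by -0.28, -0.78 and -0.25 in DG, CA3 and Sub (difference 0.78, adjusted p = 0.000773).

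**Figure D5:**
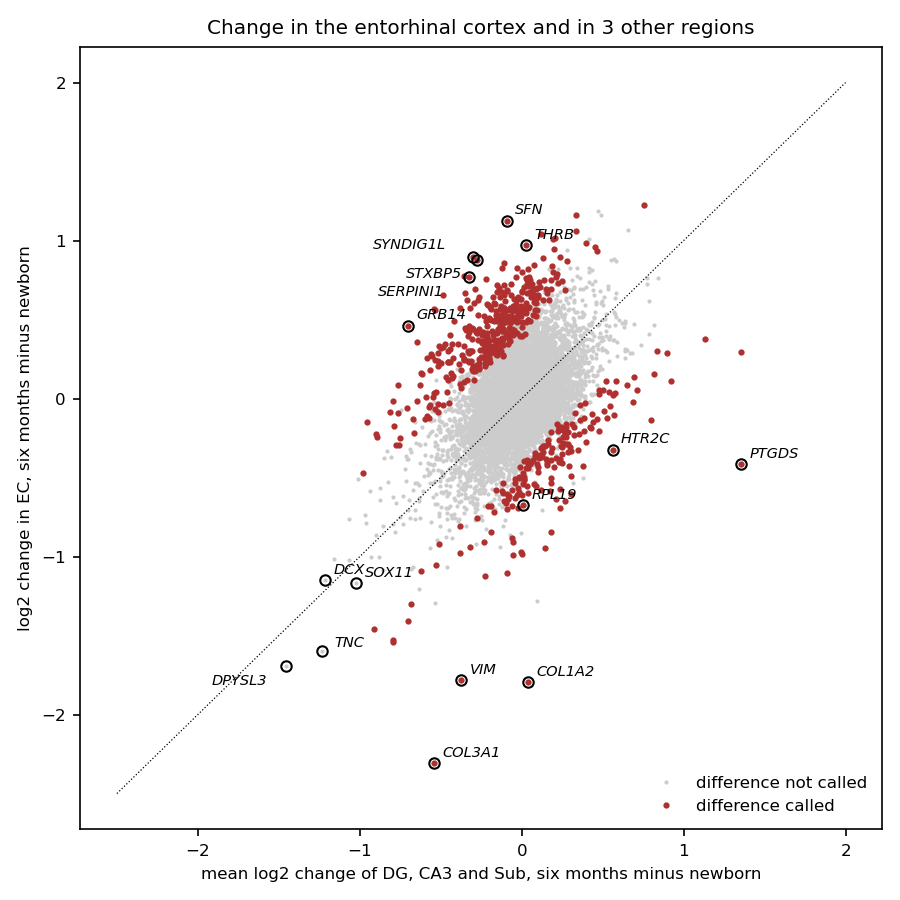
Log2 change from newborn to 6 months in the entorhinal cortex (EC, vertical axis) against the mean change of DG, CA3 and Sub (horizontal axis) for 19775 genes. Red points are the 557 genes whose EC change differed (adjusted p under 0.05), grey points the others, circled genes are named in the text, and the dotted line marks equal change. COL3A1, COL1A2 and VIM lie far below the line, PTGDS to its right, and DPYSL3, DCX, SOX11 and TNC close to it.

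Among genes with a more positive change in EC, the sizes at the top were close to each other. SFN (stratifin), the largest positive difference, read 6.87, 7.37, 7.11 and 7.08 in newborn EC and 8.31, 8.31, 7.93 and 8.38 in infant EC, and changed by -0.22 in DG, -0.13 in CA3 and 0.07 in Sub. Its difference was 1.22 (adjusted p = 0.000291), while the EC change of 1.13 had itself an adjusted p of 0.0953. SYNDIG1L, related to a protein that organises excitatory synapses, rose by 0.89 in EC with a difference of 1.19 (adjusted p = 0.000457), and STXBP5 (tomosyn), which restrains vesicle fusion, rose by 0.88 with a difference of 1.16 (adjusted p = 0.000457). GRB14, an adaptor that damps insulin receptor signalling, changed by 0.46 in EC (adjusted p = 0.222) and by -0.81, -0.72 and -0.59 elsewhere, a difference of 1.17 (adjusted p = 0.00147). THRB changed by 0.03 in DG, -0.22 in CA3 and 0.27 in Sub, and its difference was 0.94 (adjusted p = 0.000321).

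Of 20 deep-layer genes, none of which was called in EC alone with all arrays, 7 had a more positive change in EC than in the other regions and 1 a more negative change. The relaxin receptor gene RXFP1 read 6.84, 7.03, 6.96 and 7.58 in newborn EC and 7.33, 7.98, 8.20 and 8.002 in infant EC, and changed by -0.01, -0.87 and -0.18 in DG, CA3 and Sub (difference 1.13, adjusted p = 0.000545). FOXP2, TLE4, ETV1 and FEZF2, transcription factors of deep projection neurons, had differences of 0.80, 0.76, 0.65 and 0.47. In TLE4 and ETV1 much of the difference came from CA3, where they changed by -1.04 and -1.21. The mean level of the list in CA3 was 6.97, 6.43, 6.61 and 7.02 in newborns 13 to 16 and between 6.36 and 6.42 in infants, so newborns 13 and 16 stood high there. Against DG and Sub only, where 526 of 19775 genes had a more positive change, 4 genes (FOXP2, NR4A2, SYT6 and RXFP1) kept it. Without animals 13 and 16, where 82 genes had a more positive change, RXFP1 kept it and CCN2 was added. NR4A2 and SYT6 had differences of 0.64 and 0.46. The mean of SYT6 did not rise in EC, where it went from 7.10 to 6.81. It went from 7.53 to 6.51 in DG, from 6.95 to 6.41 in CA3 and from 7.56 to 6.86 in Sub. HTR2C, a serotonin receptor, changed by -0.32 in EC and by 0.07, 0.72 and 0.89 in the other regions (difference -0.88, adjusted p = 0.0106). Guidance genes gave 6 positive differences and 1 negative among 40, with EFNA5, an ephrin, at 1.10 and the netrin NTN4 at 0.82 (adjusted p = 0.000457 each).

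For myelin the difference ran the other way in 3 of 29 genes. ENPP2 (autotaxin) changed by 0.16 in EC, 1.24 in DG, 0.17 in CA3 and 1.04 in Sub (difference -0.66, adjusted p = 0.0106), and QDPR and CNDP1 had differences of -0.57 and -0.60. The median myelin change was 0.09 in EC, 0.12 in DG, -0.09 in CA3 and 0.69 in Sub. Against DG and Sub only, 7 myelin genes had a more negative change in EC, in a fit where 337 of 19775 genes did. Without animals 13 and 16 only MBP did, in a fit where 39 genes did. In Sub the list mean lay between 7.13 and 7.21 in newborns and between 7.75 and 7.89 in infants, whereas in EC the newborn range of 6.30 to 6.71 enclosed the infant range of 6.55 to 6.67. DTNBP1 (dysbindin), from the schizophrenia candidates, changed by 0.11 in EC and by 0.79, 1.59 and 0.37 in DG, CA3 and Sub, a difference of -0.81 (adjusted p = 0.000516).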

How the data were processed

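Values are log2 signals as deposited by the authors, from 3.42 to 14.51, of 54675 probe sets on each of 80 arrays. No source used here states the summary algorithm or scaling. Array quartiles spread by up to 0.12, so limma 3.58.1 (R 4.3.3) quantile normalized the 80 arrays together. The platform annotation gave 1 gene symbol to 41091 probe sets, several to 1801 and none to 11721, and 62 were controls. Each of 19775 genes was read from its 1-symbol probe set with the highest overall mean, with no filter on low signal. The number of arrays limits the precision.

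The contrast, 6 months minus newborn, was fitted (lmFit, eBayes) on the 16 EC arrays, whose 4 ages share 1 estimate of the spread, with Benjamini-Hochberg adjustment over all genes. The 2 groups hold different animals and are unpaired. For the difference between regions, the number in the titles was taken as the animal, since each region of each monkey had its own array. Deviations from the group means of same-numbered EC arrays and other regions had correlations of 0.011 (animal 11) to 0.301, over 0.1 for 7 of 8. The best match was the own number for 7 of 8. The EC array of animal 11 matched the other regions of a different infant better (0.202). No 2 arrays were identical.

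Genes were named by size, 12 rises and 12 falls, from called genes without overlap whose higher mean exceeded the median gene mean of 5.98 (uncharacterised symbols passed over), then up to 5 called members per list by p (2 members where none was called), and the 4 largest differences each way. Other members are named for their role and were chosen after their values were seen. Comparisons, members and the 36 lists were chosen with earlier results of these data known. The tests were tried on simulated data. Alternatives were deposited or median-centred values, fewer arrays, other probe set or region choices, RNA quality covariates and no pairing. Figures used Python 3.11.15 and matplotlib 3.10.9.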

Additional observations from a re-analysis of the deposited data

Results flagged for a closer look

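In 12 of 224 groups of 4 arrays, over the named genes, 1 array stood apart from the other 3 by more than Dixon's 95% limit. Chance flags about 1 in 20 such groups, so a count of this size is near what chance gives. The array was high for AIF1 in infant 12 (7.38, others 7.25 to 7.26), CALB2 in newborn 14 (8.96, others 8.09 to 8.23), EGR4 in newborn 14 (8.88, others 8.18 to 8.25), FABP7 in newborn 16 (10.58, others 9.75 to 9.86), FGF12 in infant 11 (8.24, others 7.94 to 7.97), HMGN2 in newborn 16 (11.34, others 10.93 to 10.98), ITM2A in infant 9 (8.71, others 8.39 to 8.44), SV2B in infant 10 (8.25, others 8.15 to 8.16) and TPI1 in newborn 14 (8.95, others 8.40 to 8.49). It was low for MAL in infant 12 (6.21, others 6.37 to 6.40), PDK3 in newborn 16 (6.96, others 7.55 to 7.66) and SULF1 in infant 11 (5.88, others 5.99 to 6.00). No explanation was tested for any of these.

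For 49 of the 117 named genes the change from newborn to 6 months in EC differed from the mean change of DG, CA3 and Sub (limma on per-animal differences, adjusted p under 0.05). The named genes were picked partly for large EC changes, and 8 of the 49 were named because this same difference was called. This share is therefore not a rate for all genes, for which it was 2.82%. The difference in log2 change (EC minus the others) was positive for SFN 1.22, SYNDIG1L 1.19, GRB14 1.17, STXBP5 1.16, RXFP1 1.13, SERPINI1 1.09, CNTN1 0.97, PDYN 0.95, THRB 0.94, PLCB1 0.92, HHATL 0.82, KCNIP4 0.81, SNX10 0.81, OXR1 0.81. It was also positive for SCG3 0.78, HDAC9 0.78, RGS4 0.77, NEFM 0.76, WIF1 0.73, FGF12 0.72, NR4A3 0.63, ATP2B1 0.61, ANK3 0.61, HSP90AA1 0.59, SCN3B 0.59, PDK3 0.59, RGS5 0.57, HSPA4 0.55, CYCS 0.52, RASD1 0.51, SLC1A2 0.46. The difference was negative for COL1A2 -1.83, PTGDS -1.77, COL3A1 -1.76, VIM -1.41, GRP -1.01, HTR2C -0.88, FN1 -0.75, BHLHE22 -0.73, IGFBP5 -0.70, RPL19 -0.69, RPL11 -0.63, TUBB6 -0.62, TTC28 -0.62, RPS19 -0.55, YBX1 -0.55, CCDC80 -0.53, RPS14 -0.51, DDIT4 -0.48. All 8 genes named for this difference kept their call in each of the alternatives tried and in the fits without 1 animal, and the part of dissection or cell makeup in any of them was not tested.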

How the results depend on the processing

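Against 525 called genes, 882 were called on the 8 arrays alone, 1218 without animal 8 of the 1-year group, 343 with the mean of all probe sets of a gene, 1158 with the GAPDH ratio and 1049 with the actin ratio as a covariate (the last added after its values were seen). Leaving out 1 array gave 229 to 663. Of called genes 53.7% were higher, against 48.5% with values as deposited, 43.7% with each array centred on its median and 42.5% to 60.7% with 1 array left out, so the balance of rises and falls depends on the scaling. The median of all genes moved by under 0.01 between scalings. Values as deposited gave 513 calls and median centring 437.

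The 557 differences between regions became 318 after median centring, 392 as deposited, 863 against DG and Sub only, 349 against all 4 other regions and 103 in the fit with no replicate block, which ignores that regions share an animal. Leaving out 1 animal gave 198 to 670, the lowest without animal 11. ALAS2, a blood cell gene never called, changed sign from -0.11 to 0.0041 with the mean of all probe sets and ranged from -0.24 (without infant 11) to 0.011 (without newborn 15) with 1 array left out. With the mean of all probe sets 26 named genes missed the threshold: ANK3, BCAN, FGF12, GABRA2, HDAC4, HDAC9, HSPA4, ITM2A, KCNMA1, LHFPL3, LHX6, NDUFB8, NEFM, NR4A3, NSF, PLCB1, PLXND1, PPP3CA, PTBP1, RGS5, RPS12, RPS14, RPS19, SCN1A, SLC1A2 and SV2B. After median centring 15 did: ANK3, CSPG5, DNAJA1, FABP7, FGF12, GABRA2, GABRA4, HSPA4, LHFPL3, NEFM, PPP3CA, PTN, SCG5, SPARCL1 and SV2B. With values as deposited 5 did: GABRA2, PTN, SCG5, SPARCL1 and SV2B. No other named gene changed direction under these 3. Groups of 4 arrays limit the calls: 188 of the 525 genes were called in all 8 fits with 1 array left out.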
